A study of Mus musculus with 2 samples.

Results

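SR proteins and heterogeneous nuclear ribonucleoproteins (hnRNPs) were described in day 10 hearts of female mice, with the level of each gene and the share of its RNA assigned to transcripts annotated as not protein coding. Genes were chosen by symbol (Srsf followed by a digit, or Hnrnp) and by having at least 1 protein-coding transcript in the annotation. This gave 31 of 55450 annotated genes, of which 11 were SR genes and 20 were hnRNP genes. Another 2 symbol matches, Hnrnpa1l2-ps and Hnrnpa1l2-ps2, had no protein-coding transcript and held 0 to 1.13 expected counts per library, under the 3 counts taken as the floor.

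There was 1 group, treated as 2 animals with 1 total RNA library each, and there was no treatment or control. The strain was B6CASTF1/J, an F1 hybrid of the laboratory strain C57BL/6J with the wild-derived CAST/EiJ, and the labels name no engineered allele. Each library was made from 300 ng of RNA of whole heart tissue with ERCC spike-ins, which are synthetic RNAs of known amount. The labels number the libraries as biological replicates under 1 donor record and do not name animals, so that there were 2 animals is an assumption. The labels give no other cell selection, so values are averages over all cells of the heart.

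The libraries held 40403041 expected counts in replicate 1 and 39849597 in replicate 2. The 31 genes took up 128374 and 116156 of these, which is 0.319% and 0.293% of the counts of annotated genes, without spike-ins. All 7 heart muscle genes examined were detected, and Myh6, a myosin heavy chain of heart muscle, stood at 8417 and 9608 TPM. TPM is a relative abundance corrected for transcript length. Fewer cells of a type and less RNA per cell cannot be told apart in such bulk values.

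SR proteins carry an RNA-binding domain and a stretch rich in arginine and serine. They bind exons and generally promote their inclusion, and several also escort mRNA out of the nucleus. The hnRNPs coat nascent RNA, and many of them promote exon skipping. Genes of both families are known for controlling their own output through alternative splicing: a cassette exon with an early stop codon, or an extra intron after the normal stop codon, sends the mRNA to nonsense-mediated decay, which removes mRNAs whose stop codon lies well before the last exon junction. In heart, members of both families are known to steer the splicing of contractile and calcium-handling transcripts.

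The annotation held 282 transcripts of the 31 genes. Of these, 35 were of the nonsense-mediated decay class, 75 of the retained-intron class, 37 were processed transcripts (no open reading frame annotated) and 135 were protein coding. The first 3 classes are called decay or noncoding below. Exons that hold the early stop are shown first because they set the decay transcripts of 6 SR and 2 hnRNP genes apart from the coding transcript each was compared with. Each line gives the exon from its first base to its stop codon, 5′ to 3′ on the gene's strand, on assembly mm10 with GENCODE M21 exons, and capitals mark the stop codon.
Srsf6-201, chr2:162932815-162932966, plus strand: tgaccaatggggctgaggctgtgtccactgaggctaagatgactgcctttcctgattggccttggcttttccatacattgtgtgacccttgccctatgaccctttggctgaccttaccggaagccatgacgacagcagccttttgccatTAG
Srsf3-201, chr17:29039454-29039487, plus strand: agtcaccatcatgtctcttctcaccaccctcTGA
Srsf7-203, chr17:80205054-80205081, minus strand: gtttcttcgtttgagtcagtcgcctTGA
Srsf4-203, chr4:131884276-131884390, plus strand: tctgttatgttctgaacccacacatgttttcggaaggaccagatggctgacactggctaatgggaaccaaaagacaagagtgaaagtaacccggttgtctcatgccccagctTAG
Srsf9-205, chr5:115328347-115328428, plus strand: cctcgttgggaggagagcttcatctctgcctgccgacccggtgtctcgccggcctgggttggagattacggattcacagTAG
Srsf11-206, chr3:158024209-158024231, minus strand: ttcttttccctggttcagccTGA
Hnrnpll-203, chr17:80044976-80045022, minus strand: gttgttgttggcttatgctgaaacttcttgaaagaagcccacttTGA
Hnrnpl-213, chr7:28817335-28817393, plus strand: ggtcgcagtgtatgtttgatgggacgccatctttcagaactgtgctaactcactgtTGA

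The open reading frame thus ended 23 nt into the added exon of Srsf11-206 and 28 nt into that of Srsf7-203, and 152 nt into that of Srsf6-201. The exons run on past the stop codon, to 268 nt in Srsf6-201, 456 nt in Srsf3-201 and 460 nt in Srsf7-203. Of the 8 exons shown, the one of Srsf6-201 is also part of 1 annotated protein-coding transcript, and no protein-coding transcript of the gene holds any of the others. Srsf4-204, the more abundant decay transcript of Srsf4, begins inside the exon shown for Srsf4-203 and has the same stop codon.

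Of the 31 genes, 30 were detected, meaning at least 1 TPM in both libraries. Srsf12 was the exception, with 4 and 2 expected counts (0.09 and 0.02 TPM). The median level over the 11 SR genes was 28.9 ± 0.69 TPM, and that over the 20 hnRNP genes was 63.4 ± 5.76 TPM (mean ± SD of the 2 libraries throughout, n = 2). Over all 11715 detected genes with a protein-coding transcript the median was 10.9 ± 0.035 TPM. By kallisto, the second deposited quantification, the SR median was 46.1 TPM and the hnRNP median 84.3 TPM.

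The most abundant SR gene was Srsf5, whose protein binds exonic enhancers, with 99.7 TPM in replicate 1 and 75.00 TPM in replicate 2. Srsf2, the SC35 protein of nuclear speckles, had 79.3 and 70.3 TPM, and Srsf1, the founding SR protein, had 64.5 and 64.6 TPM. Srsf3, an adaptor for mRNA export, had 61.2 and 53.2 TPM, and Srsf6 had 46.5 and 39.4 TPM. Among the first 4 of these, neighbours in that order differed by no more than 3 SD of their log2 ratio. Genes further apart in the order were not compared. Srsf3 stood above Srsf6 by 0.41 ± 0.026 on the log2(TPM + 0.1) scale. Srsf11, Srsf7, Srsf10, Srsf4 and Srsf9 followed with means of 28.1, 25.9, 24.8, 20.5 and 15.1 TPM. In all, 5 of the 10 neighbouring SR pairs were apart in both libraries by this rule.

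Among the hnRNP genes, Hnrnpk, a poly-C binding protein with KH domains, led with 328 and 294 TPM. Hnrnpa2b1, which binds and transports RNA, had 223 and 222 TPM. Hnrnpl, a CA-repeat binding splicing regulator, had 171 and 170 TPM. These genes were apart in that order, and Hnrnpl stood apart from the next gene as well. Hnrnpf, which binds runs of G, had 147 and 134 TPM and could not be separated from Hnrnpa3, an A/B-type hnRNP, with 145 and 126 TPM. The least abundant were Hnrnpll and Hnrnph3, with means of 14.7 and 12.7 TPM, so that the hnRNP levels spanned a wider range than those of the 10 detected SR genes. Of 19 neighbouring hnRNP pairs, 9 were apart. Expected counts of 13 of the 31 genes, Hnrnpk, Hnrnpa1, Hnrnpa3, Hnrnpc, Srsf3 and Srsf5 among them, were not whole numbers (to within 0.005), so some of their reads were shared with another gene or copy and their levels are less certain.

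**Figure D1:**
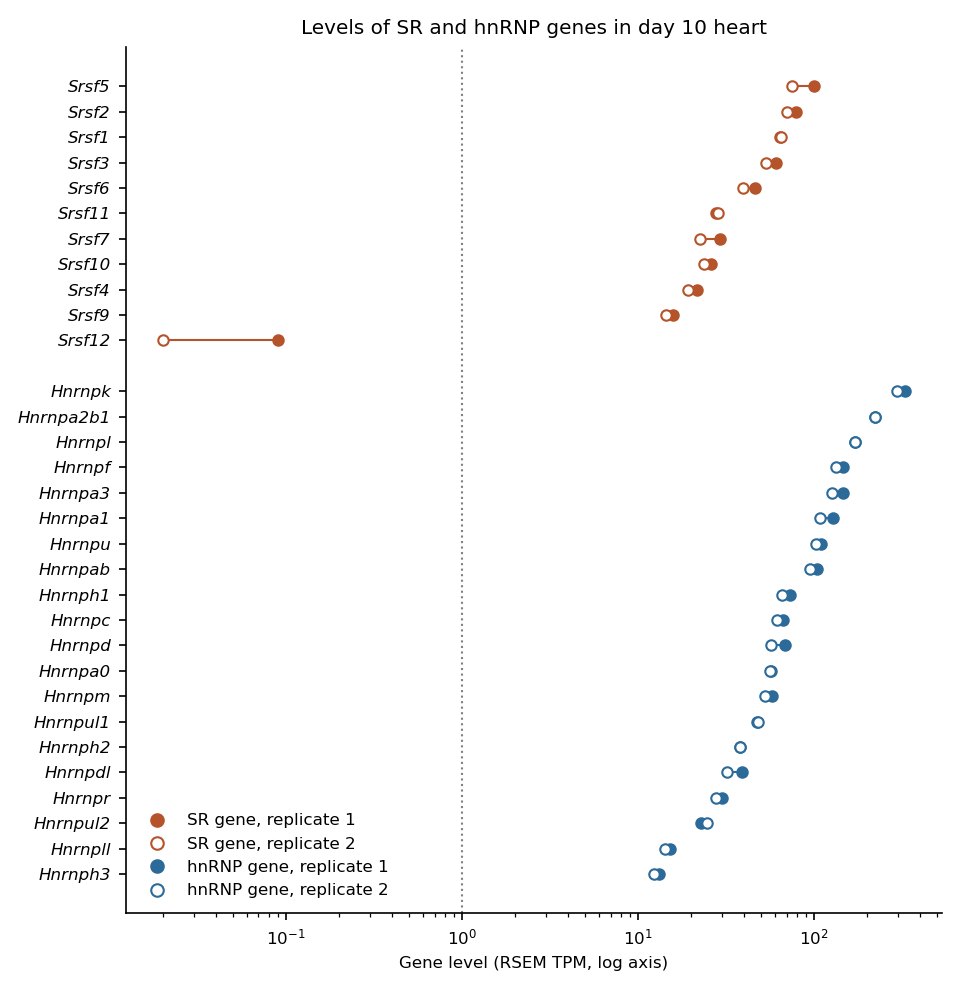
Level of each SR gene (top block) and hnRNP gene (bottom block) in both libraries, as RSEM TPM on a log axis. Filled points are replicate 1, open points replicate 2, and the dotted line is the detection limit of 1 TPM. Hnrnpk lies highest at 328 and 294 TPM, and Srsf12 is the only gene left of the line.

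No detected member was at least 1.5-fold apart between the animals (0 of 30), against 2.56% of all 12833 detected genes, by CPM with TMM scaling and a prior count of 0.5 (CPM sets each count against the library's total). With 1 library per animal and no second group there is no p-value, and 2 libraries allow no exact p under 0.5. With a threshold of 25% more in one animal than in the other, 2 members differed, both lower in replicate 2, against 10.1% of all detected genes in either direction and 4.5% in this direction. Srsf5 had a log2 ratio of replicate 2 to replicate 1 of -0.42 (counting SE 0.033), and Srsf7, which like Srsf3 links splicing to export, one of -0.35 (counting SE 0.064). Small differences ran mostly one way: 10 of 10 SR genes and 17 of 20 hnRNP genes were lower in replicate 2, against 47.8% of all detected genes. The median log2 ratio was -0.13 over the SR genes and -0.09 over the hnRNP genes, against 0.01 over all detected genes, and library size alone, DESeq2 size factors and kallisto counts gave 27 or 28 of 30 members lower. Among related genes described below, 12 of 13 detected hnRNP family genes under other symbols and 8 of 9 kinase and import genes were lower. So were 12 of 17 SR-related and Tra2 genes, 10 of 16 decay factors and 12 of 25 core spliceosome genes. Median log2 ratios were -0.11 for the otherwise named hnRNP genes and -0.10 for the SR-related and Tra2 genes. They were -0.02 for the kinase and import genes, -0.02 for the decay factors and 0.004 for the core spliceosome genes. The lean was therefore not particular to the members. In size it was matched only by the otherwise named hnRNP genes and the SR-related and Tra2 genes. Heart muscle genes moved less uniformly, with 2 of 7 lower in replicate 2 and a median log2 ratio of 0.09. Whether cell composition or RNA quality differed between the animals, and what part that had in this, was not tested.

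RNA of the 31 genes was mostly assigned to protein-coding transcripts. Their summed TPM was 10.7% and 10.9% decay class, 12.5% and 10.9% retained-intron class, 4.57% and 4.33% processed transcripts, and 72.3% and 73.9% protein coding. In expected counts, which are not corrected for length, the protein-coding part was 79.7% and 80.9%. Total RNA libraries also hold unspliced and partly spliced RNA, and the part this has in the retained-intron values was not tested.

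The share per gene was the sum of IsoPct, the deposited percent of a gene's TPM in each transcript, over its decay or noncoding transcripts. Of the 30 detected genes, 26 had such a transcript annotated. Hnrnpf, Hnrnpab, Hnrnpa0 and Hnrnph2 had none, so their share is 0 by annotation. Over the 10 SR genes the median share was 28.0% and 25.8%, and over the 16 hnRNP genes that could have one it was 32.3% and 26.9%. Over all 9429 detected genes with both kinds of transcript it was 12.5% and 11.3%. Members had a median of 4 decay or noncoding transcripts, and the 3857 detected genes with at least 4 had medians of 23.9% and 22.2%. Only 17 of the 26 members had at least 4, so those medians are not like for like with the member medians above.

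A share of at least 50% in both libraries was found in 5 of 26 members, against 7.74% of all detected genes with both kinds of transcript. These were Srsf3, Srsf6, Srsf11, Hnrnpu and Hnrnph1. Kallisto also put 5 members over 50% in both libraries, but only Srsf3, Srsf6 and Hnrnpu were among both sets. Hnrnph3 and Hnrnpll took the other places, whereas Srsf11 had 48.9% and 51.9% and Hnrnph1 48.7% and 52.02% by kallisto. Among genes with at least 4 decay or noncoding transcripts it was 4 of 17 members, against 12.5% of all such genes. At 25%, 14 of 26 members passed, against 24.8%, and among genes with at least 4 such transcripts 11 of 17 members, against 40%. Calculated from counts in place of TPM, the share reached 50% in 2 members, Srsf3 and Hnrnpu. The decay class alone reached at least 10% in both libraries in 10 of 26 members (4 SR and 6 hnRNP genes), against 9.93%, and in 6 of 17 members with at least 4 decay or noncoding transcripts, against 16% of such genes.

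**Figure D2:**
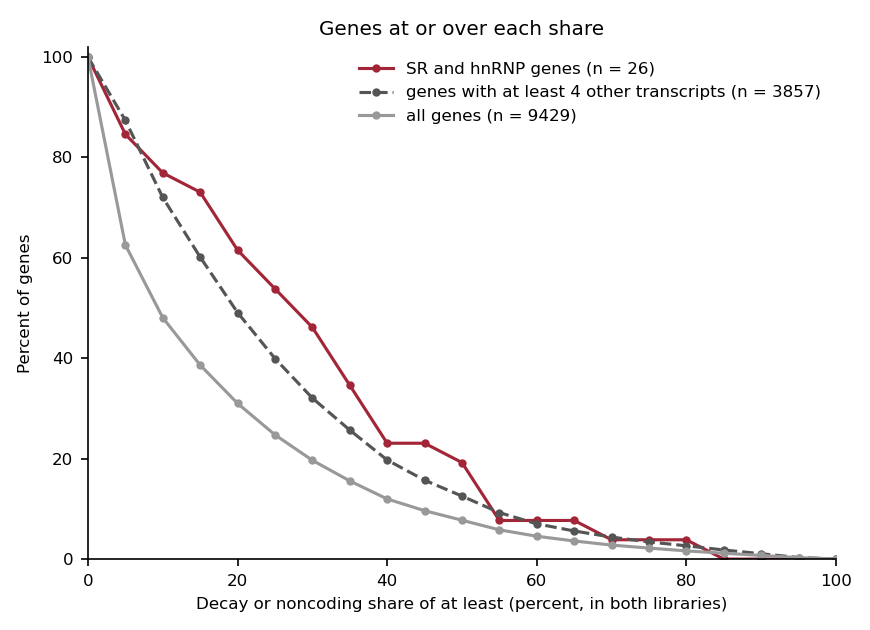
Percent of genes whose decay or noncoding share was at or over each value on the x axis in both libraries, for the 26 SR and hnRNP genes, for the 3857 genes with at least 4 decay or noncoding transcripts and for all 9429 genes with both kinds of transcript. The member line lies above both others at 25% (14 of 26 genes) and meets the dashed line between 50% and 60%.

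Srsf3 (ENSMUSG00000071172.13, chr17:29032628-29043373) had the highest share of the SR genes, 66.3% in replicate 1 and 67.9% in replicate 2, and its only protein-coding transcript, Srsf3-202, took the other 33.7% and 32.1%. Its leading transcript outside the coding class was Srsf3-209, a processed transcript of 518 nt, with 30.2% and 35.2% of the TPM but 242 and 241 of the 3791 and 3054 expected counts of the gene. The decay transcript with the exon shown above, Srsf3-201, held 20.6% and 18.6% of the TPM, on 985 and 760 counts. By counts the decay transcript, of 2594 nt, was thus ahead of the short one in both animals, and by TPM it was behind it. Kallisto gave Srsf3-201 30.4% and 29.6%, and the coding Srsf3-202 11.8% and 18.0%. It placed 3.21% and 7.97% in Srsf3-209 and 33.3% and 22.2% in another short processed transcript, Srsf3-207 of 594 nt, which held 0% by RSEM in both libraries. The quantifications thus differed in which short entry received the reads.

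In Srsf6 (ENSMUSG00000016921.14, chr2:162931528-162937121), which encodes the splicing regulator SRp55, the decay transcript was about as abundant as the coding one by TPM. Srsf6-201 held 40.4% and 44.2% of the gene's TPM and Srsf6-203, the leading coding transcript, 45.02% and 40.5%. In TPM, Srsf6-201 had 18.8 and 17.4, with deposited interval bounds of 16.2 to 20.5 in replicate 1 and 14.8 to 18.9 in replicate 2. Srsf6-203 had 20.9 and 16.0 TPM, so which of the 2 was higher changed with the animal. The retained-intron transcript Srsf6-204, which spans the same added exon, took a further 14.6% and 15.3%. Kallisto placed 44.02% and 47.5% in Srsf6-201. By expected counts, not corrected for length, Srsf6-201 held 921 and 836 of the gene's 3759 and 3033. The share of Srsf6 by counts was 40.3% and 44.7%.

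Srsf11, an SR-related splicing factor, and Srsf5 reached similar shares through other classes. Srsf11 had 59.7% and 54.5%, of which 53.0% and 48.5% was retained-intron class and 6.64% and 6.01% decay class. Its leading transcript of this kind was Srsf11-208, a retained-intron transcript with 16.3% and 10.8%, against 29.5% and 26.7% for the coding Srsf11-202. Srsf5 had 45.8% and 52.6%, led by the processed transcript Srsf5-206 with 27.6% and 32.2% (16.8% and 19.7% by kallisto), and its decay class stood at 0% and 0.38%. The leading coding transcript, Srsf5-205, held 28.8% and 28.5%. Srsf5 was therefore on either side of 50% in the 2 animals.

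Srsf2 had a share of 27.7% and 26.3%, split about evenly between the retained-intron transcript Srsf2-203 (14.9% and 14.5%) and the decay class. Its decay transcript Srsf2-204 held 12.7% and 11.8%, but it has no base that the coding transcript Srsf2-201 lacks, and kallisto gave it 0.00999% and 0%. Srsf2-201 held 65.2% and 66.3%. The evidence for this decay transcript therefore differed between the quantifications.

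Of the SR genes with a share, Srsf4, Srsf7 and Srsf9 had the lowest. Srsf4 had 23.3% and 19.0%, led by the decay transcript Srsf4-204 with 11.5% and 7.49%, against 76.7% and 81.0% for its coding transcript Srsf4-202. Srsf7 had 17.5% and 14.4%, led by the retained-intron transcript Srsf7-206 with 9.83% and 10.96%, which spans the exon shown above. Its decay transcript Srsf7-203 had 1.06 TPM in replicate 1 (bounds 0.582 to 1.54) and 0.28 TPM in replicate 2 (bounds 0.0802 to 0.563), so the intervals of the animals did not overlap. The leading coding transcript, Srsf7-208, held 51.7% and 47.2%. Srsf9 had 5.63% and 9.99%, led by the decay transcript Srsf9-205 with 5.23% and 4.62%, and its coding transcript Srsf9-201 held 94.4% and 90.01%.

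Srsf1 and Srsf10, the other SR genes, lay in the middle. Srsf1 had 28.4% and 25.3% by TPM, of which the decay class held 9.15% and 8.89%, and 8.91% and 8.15% by expected counts. Srsf10, a repressor of splicing when dephosphorylated, had 25.8% and 21.9% by TPM and 7.76% and 4.69% by expected counts, all in processed transcripts. Both genes thus had far lower shares when length was not corrected for.

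**Figure D3:**
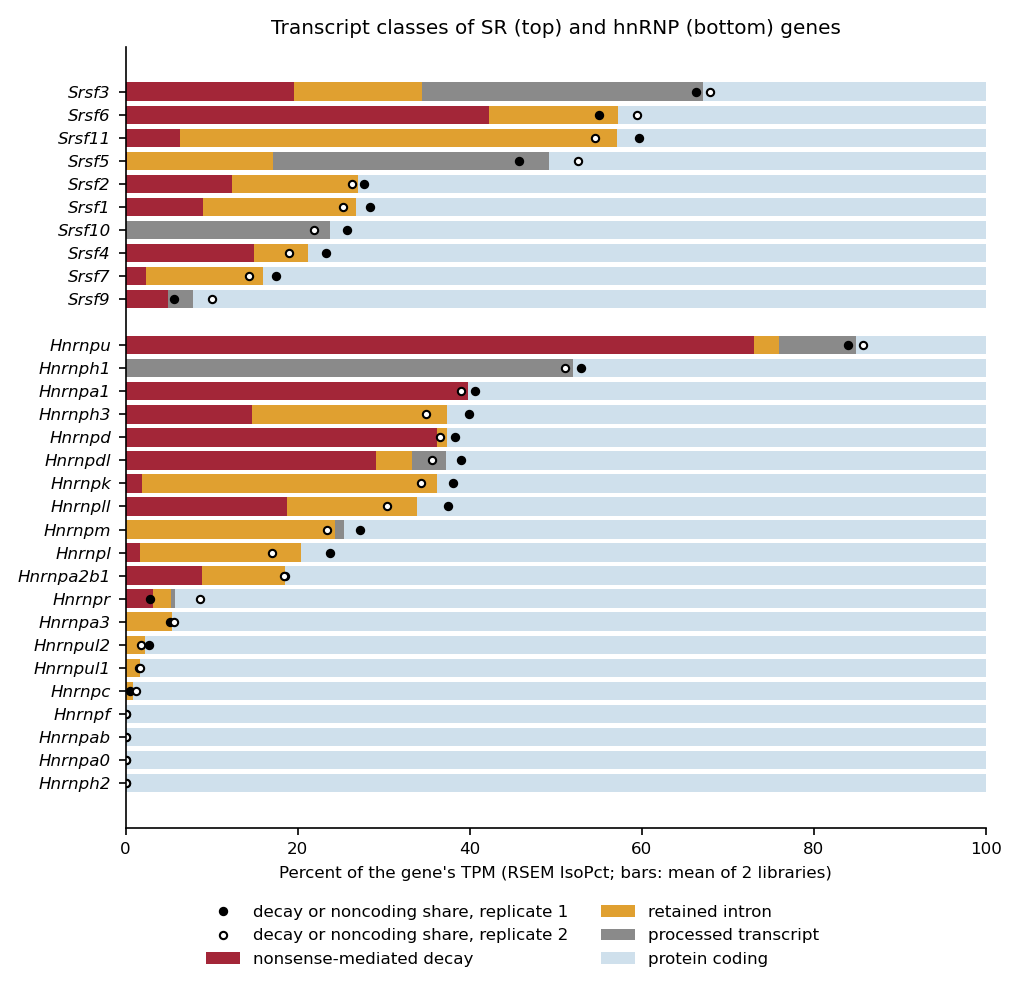
Percent of each detected gene's TPM by transcript class, SR genes above hnRNP genes, each block ordered by share. Bars are the mean of 2 libraries, and filled and open points mark the decay or noncoding share in replicates 1 and 2. Decay transcripts make up most of the share in Srsf6 (42.3%) and Hnrnpa1, whereas the share of Hnrnph1 and Srsf10 is made of processed transcripts.

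Hnrnpu (ENSMUSG00000039630.10, chr1:178321108-178337797), a nuclear scaffold protein that also binds long noncoding RNA, had the highest share of all members, 84.0% and 85.7%. The decay class held 70.8% and 75.3%, most of it in Hnrnpu-206 with 58.2% and 60.8%, against 16.0% and 14.3% for the only coding transcript, Hnrnpu-201. Hnrnpu-206 carries 99.1% of the length of the coding sequence, 2379 of 2400 nt. Its stop codon lies in a 71-nt exon within the last exon of Hnrnpu-201, 183 nt before the last junction, and the annotation tags it as a readthrough transcript. Of its 2844 nt, 267 lie outside the exons of Hnrnpu-201. Hnrnpu-201 is 7640 nt long, so by expected counts the pair was closer, with 5453 and 5276 counts for Hnrnpu-206 and 4124 and 3403 for Hnrnpu-201. By kallisto the decay class of Hnrnpu was 43.7% and 47.2%, nearly all of it in Hnrnpu-206 with 43.5% and 46.9%. The short decay transcript Hnrnpu-209 had 0.0433% and 0% by kallisto, against 12.6% and 14.6% by RSEM. The processed transcript Hnrnpu-203 had 31.3% and 30.2% by kallisto, against 6.91% and 5.31% by RSEM.

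Hnrnph1, a G-run binding regulator, had 52.9% and 51.1%, all of it in processed transcripts. The leading one, Hnrnph1-212, held 12.3% and 13.1%, against 46.6% and 44.3% for the coding Hnrnph1-201. None of its transcripts is of the decay class. Hnrnph1-212 is 816 nt long, whereas the processed transcript with the most counts, Hnrnph1-205, is 4577 nt long and held 6.82% and 5.49% of the TPM on 701 and 496 counts. By expected counts the share of Hnrnph1 was 39.8% and 36.4%. Kallisto gave Hnrnph1-212 7.14% and 4.92%, and it moved most of the coding part to Hnrnph1-203 with 40.5% and 36.6%, leaving 10.8% and 8.15% in Hnrnph1-201.

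In Hnrnpa1 (ENSMUSG00000046434.16, chr15:103240432-103246692), a splicing silencer protein that binds exonic and intronic sites, the share was 40.6% and 39.0% and consisted of decay transcripts. Hnrnpa1-203 held 36.0% and 34.5%, with the same coding length of 960 nt and the same stop codon as Hnrnpa1-202, which held 58.5% and 57.0%. It differs after the stop codon, where it joins other terminal exons in place of the last exon of Hnrnpa1-202, and its stop codon stands 90 nt before the last junction. Kallisto gave 23.97% and 21.8% to Hnrnpa1-203. Both methods thus put Hnrnpa1-203 in the range of 21.8% to 36.0%, always under Hnrnpa1-202.

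Hnrnpd, the AU-rich element binding protein AUF1, had 38.2% and 36.5%. Its leading decay transcript, Hnrnpd-208, held 27.8% and 23.5%, and its leading coding transcript by TPM, Hnrnpd-210, held 31.2% and 29.5%. Hnrnpd-210 is 493 nt long and rested on 263 and 203 counts. The coding Hnrnpd-203, of 1670 nt, held 26.45% and 26.6% on 889 and 730 counts. By kallisto the share of Hnrnpd was 15.8% and 20.7%, Hnrnpd-208 held 9.70% and 8.14%, and the leading coding transcript was Hnrnpd-203 with 39.0% and 46.1%. Hnrnph3, a relative of Hnrnph1, had 39.9% and 34.9% on 586 and 540 counts in all. It was led by the decay transcript Hnrnph3-204 with 15.2% and 14.2%, against 18.2% and 29.6% for the coding Hnrnph3-202, and by kallisto Hnrnph3-204 held 52.6% and 47.5%. That coding transcript rested on 155 and 232 counts and moved more between the animals than the share did. Its deposited TPM bounds overlapped, with 1.32 to 3.74 in replicate 1 and 2.41 to 4.89 in replicate 2. Another coding transcript, Hnrnph3-201, moved the other way, with 27.1% and 16.95% by RSEM and 0% by kallisto in both libraries.

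The lowest shares among hnRNP genes with such transcripts were those of Hnrnpul2, Hnrnpul1 and Hnrnpc. Hnrnpul2 and Hnrnpul1 are relatives of Hnrnpu known from the DNA damage response. Hnrnpul2 had 2.74% and 1.83%, all in the retained-intron transcript Hnrnpul2-202, against 97.3% and 98.2% in the coding Hnrnpul2-201. Hnrnpul1 had 1.61% and 1.69%, led by the retained-intron transcript Hnrnpul1-204 with 1.02% in both libraries, and its leading coding transcript Hnrnpul1-205 held 73.2% and 69.7%. Hnrnpc, which binds U tracts, had 0.47% and 1.19%, in the retained-intron transcript Hnrnpc-208, and its leading coding transcript Hnrnpc-207 held 40.5% and 38.7%. Hnrnpul1 and Hnrnpul2 were also among the 3 members that were not lower in replicate 2, with Hnrnpa2b1. Their shares lay far from that of Hnrnpu, to which they are related.

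The other 8 hnRNP genes with such transcripts had mean shares of 5.38% in Hnrnpa3 to 37.3% in Hnrnpdl. Hnrnpll, which controls splicing of a leukocyte surface phosphatase in lymphocytes, had 19.7% and 17.9% in the decay transcript Hnrnpll-203, whose added exon is shown above (36.02% and 38.1% by kallisto). In Hnrnpl the transcript with the added exon, Hnrnpl-213, held 1.02% and 2.41%, and the retained-intron class 22.7% and 14.6%. The related genes Hnrnpl and Hnrnpll thus both have an annotated early-stop exon, at a low share in Hnrnpl and a higher one in Hnrnpll. In Hnrnpa2b1 the decay class held 7.25% and 10.6% by RSEM, in Hnrnpa2b1-209, and 8.54% and 13.6% by kallisto, in Hnrnpa2b1-207.

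Within genes the share was stable between animals next to its spread among genes. The median absolute difference between libraries was 4.05 percentage points over the SR genes and 1.78 over the hnRNP genes, with a highest value of 7 points in a member. Mean shares ran between 0.83% in Hnrnpc and 84.8% in Hnrnpu. The share was lower in replicate 2 in 17 of 26 members. Over all 9429 detected genes with both kinds of transcript the median share was lower there too, with 12.5% in replicate 1 and 11.3% in replicate 2. No p-value attaches to these differences, since there is 1 group.

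The decay transcripts differed in how they reach an early stop. Of the decay class, 26 transcripts in 18 genes (8 SR and 10 hnRNP) held a mean of at least 1% of their gene's TPM, and each was set against the protein-coding transcript of the gene with the most expected counts. In 11 of them, from 6 SR genes and 2 hnRNP genes, the stop codon lay in an exon absent from that coding transcript. These are the genes whose sequences are printed above. In 7 transcripts, of Srsf2, Hnrnpa1, Hnrnpa2b1, Hnrnpd and Hnrnpdl, the stop codon was that of the coding transcript and further introns followed it. The other 8, from 1 SR gene and 6 hnRNP genes, fitted neither description.

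The stop codon stood more than 50 nt before the last junction in all 26, which is how the class is defined and no finding. The distance had a median of 617 nt in the added-exon transcripts and of 137 nt in those that kept the coding transcript's stop. Several of these entries lack an annotated start, among them Srsf4-204, Srsf9-205, Hnrnpl-213, Hnrnpd-208 and Srsf2-204. Decay transcripts of Hnrnpu, Hnrnpa1, Hnrnpa2b1 and Hnrnpdl keep at least 90% of the coding length. With those counted as coding, the median share over all 20 hnRNP genes was 8.23% in place of 19.4%, and 4 members in place of 5 reached 50%.

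**Figure D4:**
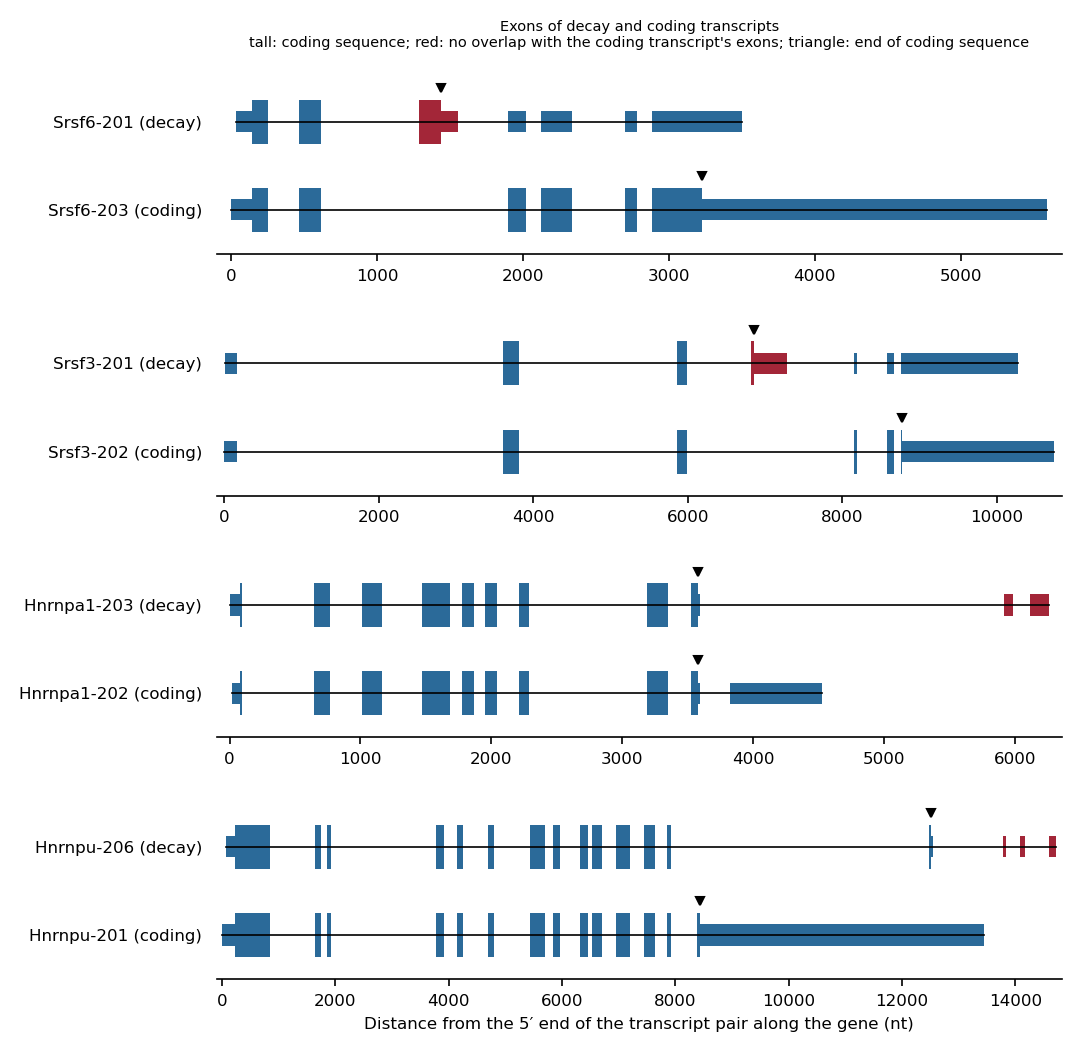
Exons of the leading decay transcript (upper line of each pair) and of the coding transcript it was set against, along the gene in nt from the 5′ end. Tall blocks are coding sequence, red blocks do not overlap an exon of the coding transcript, and triangles mark the end of the coding sequence. Srsf6 and Srsf3 gain an internal exon with the stop codon, whereas in Hnrnpa1 and Hnrnpu the added exons follow the coding sequence.

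The 2 deposited quantifications gave shares within 10 percentage points of each other for 18 of 26 members, with a median absolute difference of 5.25 points. Kallisto was higher in 13 of the 26. Hnrnph3 differed most, with 64.4% and 61.0% by kallisto and 39.9% and 34.9% by RSEM. Hnrnpr, which binds mRNA in neurons among other cells, had 29.96% and 24.3% by kallisto and 2.87% and 8.65% by RSEM. Hnrnpk had 14.7% and 16.1% by kallisto and 38.1% and 34.3% by RSEM, where its leading retained-intron transcript Hnrnpk-215 is 522 nt long. For these genes the choice of method moved the share by far more than the difference between animals. For Hnrnpu (83.5% and 84.2% by kallisto) and Srsf6 (60.2% and 64.4%) both methods gave similar total shares, although the split of the Hnrnpu share among its transcripts differed as described above.

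**Figure D5:**
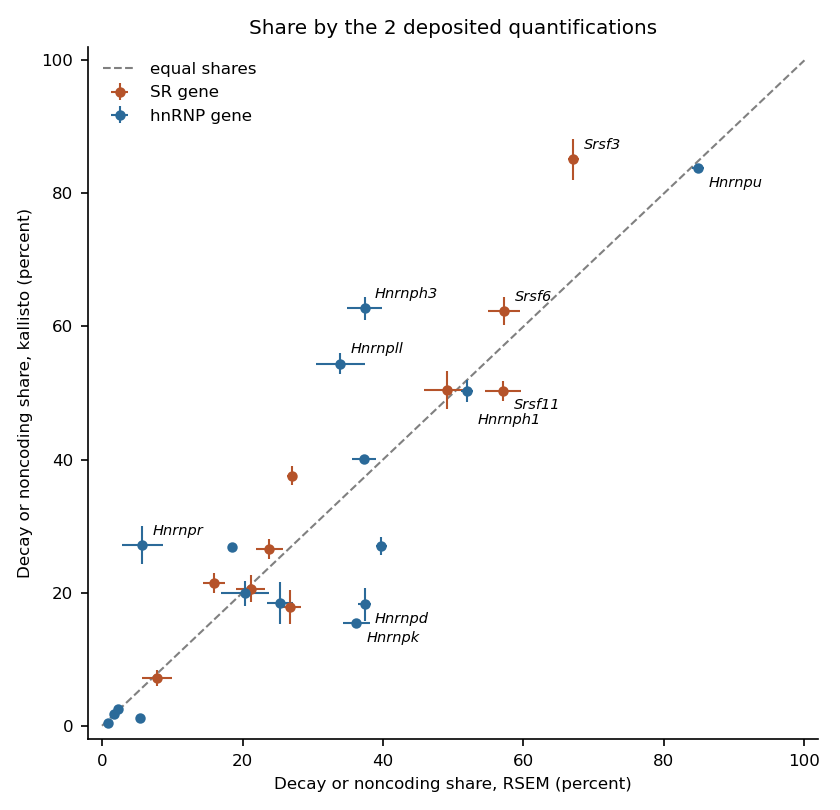
Decay or noncoding share by kallisto against that by RSEM for the 26 members with such a transcript. Points are means, bars span the 2 libraries, and the dashed line marks equal shares. Hnrnph3, Hnrnpr, Hnrnpll and Srsf3 lie well above the line and Hnrnpk and Hnrnpd below it.

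Genes that work with these families were read from lists. The 17 SR-related proteins and Tra2 genes had a median share of 34.7% and 29.7%, and 6 of them had at least 10% decay class in both libraries, against 9.93% of all detected genes with both kinds of transcript and 16% of those with at least 4 decay or noncoding transcripts. Members of this list had a median of 7 such transcripts. In 1 of them, Luc7l, the share reached 50% (73.5% and 64.02%), against 7.74% of all detected genes with both kinds of transcript. The most abundant were Srrm2 (93.1 and 82.6 TPM) and Son (81.0 and 74.1 TPM), scaffolds of nuclear speckles, and Rsrp1 (62.0 and 68.4 TPM). Tra2b, chosen here after its values were seen, is a splicing activator with its own known early-stop exon and had 25.5% and 34.7% decay class. The SR genes had a median decay share of 7.90% and 7.45% by RSEM, against 4.41% and 4.70% for that list. By kallisto the order was reversed, with 5.42% and 3.38% for the SR genes and 6.26% and 5.69% for the list.

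The 9 genes of kinases and import of SR proteins had a median share of 35.6% and 36.7%, with a median of 6 decay or noncoding transcripts. Of them, 2 reached 50%, Clk1 (85.5% and 84.96%) and Clk4 (62.2% and 58.3%), kinases that phosphorylate SR proteins. Of all detected genes with both kinds of transcript 7.74% reached 50%, and of those with at least 4 decay or noncoding transcripts 12.5%. Dyrk1a, Clk1 and Srpk2 were the most abundant, with means of 33.2, 31.0 and 20.4 TPM. The 14 hnRNP family genes named otherwise included Pcbp2 and Pcbp1, poly-C binding proteins with means of 233 and 82.7 TPM, and had a median share of 20.0% and 23.2% over the 13 detected. Ralyl was listed at 0 TPM in both libraries. None of that list reached 50% in both libraries, against the same 7.74% and 12.5%. In 5 of its genes the decay class was at least 10%, against 9.93% and 16% of those 2 sets of genes. The list had a median of 5 decay or noncoding transcripts.

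Lists of other RNA-processing genes had lower medians, and also fewer annotated decay or noncoding transcripts, with a median of 3 in the core spliceosome list and 2.5 in the list of decay factors. What part the number of annotated transcripts had in these medians was not tested. The 25 core spliceosome genes, led by Prpf19, Snrpb and Snrnp70 with means of 95.6, 80.2 and 58.1 TPM, had a median share of 7.61% and 6.23%, and 1 of them had at least 10% decay class. A single gene of that list, Snrpg, reached a share of 50%, with 78.8% and 88.3%. The 16 nonsense-mediated decay factors, led by Eif4a3, Rnps1 and Magoh with means of 44.4, 37.7 and 24.98 TPM, had 16.1% and 10.1%, and 0 of them reached 10% decay class. In that list Rbm8a alone reached a share of 50%, with 62.5% and 54.9%. The median decay share of both these lists was 0% in both libraries. Of all detected genes with both kinds of transcript, 7.74% reached a share of 50% and 9.93% reached 10% decay class in both libraries. These differences between lists are descriptions without a test.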

How the data were processed

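Total RNA-seq of 2 day 10 hearts (1 library each) was analysed from the deposited tables on assembly mm10. Per the file headers, the authors' gene and transcript tables hold expected counts, TPM and, for transcripts, the percent of the gene's TPM (IsoPct) with posterior means and interval bounds, in the column format of RSEM. The second deposited transcript tables hold estimated counts and TPM in the column format of kallisto. The deposited interval bounds, on the TPM scale, are scores of how far read assignment could move a transcript. Versions of these tools and any trimming are not stated. Reads were assigned on the C57BL/6J reference, and reads of the other parental genome could be assigned less often. Entries with numeric identifiers (26248, holding 3.84 and 2.92 counts) and spike-ins were left out of library sizes.

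Expected counts were rounded and scaled by TMM (edgeR 4.0.16, R 4.3.3), with DESeq2 1.42.0 size factors as an alternative. No condition was compared, so edgeR's quasi-likelihood test could not be fitted and no p-value is given. Counting SEs cover counting error only, and SDs over 2 animals under 1 donor record cover the spread between these samples. Exons, coding sequences and stop codons came from GENCODE M21 and its transcripts. The text names the 5 most abundant genes of each family, the 5 with the highest and 3 with the lowest share, their leading transcripts, members 1.5-fold apart, undetected members and the 3 that differ most between methods. For the lists it names the 3 most abundant genes, except 1 that is not reported here. Clk4, Tra2b, Luc7l, Snrpg and Rbm8a, transcripts named for their structure, and those given for a difference between methods, were picked with their values in view. Members and lists were chosen with earlier results of these data known. Fold calls were tested on simulated counts. The share formula was only recomputed on random values, an outcome fixed in advance. Assignment of reads to transcripts was not simulated. Computation was in Python 3.11.15 (pandas 2.3.3, scipy 1.17.1), and figures were drawn with matplotlib 3.10.9.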

Additional observations from a re-analysis of the deposited data

How the results depend on the processing

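No paired analysis was possible because there is 1 group, in which the replicate numbers are taken to name single animals. By kallisto TPM the median level was 46.1 TPM over the SR genes and 84.3 TPM over the hnRNP genes, the median share of the SR genes was 32.1%, and 8 neighbour pairs in place of 14 were apart in level, and the 5 members at 50% included Hnrnph3 and Hnrnpll in place of Srsf11 and Hnrnph1. Over detected members only, the SR median was 35.9 TPM. The hnRNP median shares in this paragraph are over all 20 genes, including those whose share is 0 by annotation, and by TPM this median was 19.4%. Over the 16 with such a transcript it was 29.6% by TPM and 17.5% by expected counts. From expected counts the median share was 19.8% (SR) and 12.7% (hnRNP), and 2 members reached 50%. With the decay class alone these values were 7.67%, 0.44% and 1 member, and with retained-intron transcripts left out 15.1%, 2.14% and 3 members. Chosen after seeing the data were the posterior mean IsoPct, which gave an SR median of 29.1%, and the counting of decay transcripts with at least 90% of the coding length as coding, which gave an hnRNP median of 8.23%. Without a filter on low values 1 member, Srsf12, was 1.5-fold apart, and with a threshold of 25% more in one animal 2 were. Leaving out 1 animal gave SR levels of 28.4 to 29.4 TPM, hnRNP levels of 59.3 to 67.5 TPM, SR shares of 25.8% to 28.0%, hnRNP shares of 17.7% to 21.1%, and 5 to 6 members at 50%. Of 47 alternatives, 29 left the value within the spread between animals or within 1.5 times a count. Why the others moved was not tested, beyond their own construction. Some of the 29 could not have moved. A median without 1 animal lies within the spread of 2 by construction, and a 2-fold threshold cannot raise a count of 0. The tally is therefore no measure of robustness. Low counts limit Srsf9, Hnrnph3 and the minor transcripts.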
